A study of Mus musculus with 6 samples.

Results

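The serum amyloid and antimicrobial secretory genes are a set of 10 genes whose proteins epithelia and liver release, or place on the cell surface, against microbes: Saa1, Saa2, Saa3, Lcn2, Ltf, Hp, Lbp, Cd14, Slpi and Pigr. They were chosen by name with the levels in Plk2 null and wild-type cells already known, so their values in that comparison are given as a description and carry no test. Every gene probe whose RefSeq transcript belongs to one of the genes was taken, which gave 11 probes of the 55681 on the array, for 10 of 20145 named genes. All 11 probes passed the filter on dim signals, and the probe reported for each gene was well above background on all 6 arrays. Pigr has 2 probes and the other 9 genes have 1 each. By the RefSeq table, Saa1, Saa2 and Saa3 lie on chromosome 7, Lcn2, Lbp and Slpi on chromosome 2, Ltf on 9, Hp on 8, Cd14 on 18 and Pigr on 1.

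RNA came from primary mammary epithelial cells of Plk2 -/- mice (null, 3 samples) and of mice wild type for Plk2 (3 samples), each hybridised to its own 1-colour array. All mice were females of 8 weeks on the 129sv/C57Bl6 background, and in both groups the glands were dissociated and the RNA extracted with Trizol. Plk2 encodes a polo-like serine/threonine kinase. The labels do not say what part of the gene is deleted or whether a sample pools animals, so p-values measure only the spread between these samples. The share of probes well above background was 51.2% to 54.8% on null and 50.2% to 52.3% on wild-type arrays. The Plk2 probe lay at -7.07 ± 0.13 in null and 2.25 ± 0.11 in wild-type samples (log2 level, SD, n = 3 each) and was well above background on 0 of 3 null arrays, which bounds the null level at least 152.3-fold below wild type, taking the dimmest signals well above background as the floor (adjusted p of the measured values 3.66e-06, limma). Null arrays filled row 2 and wild-type arrays row 1 of a single slide, so an effect of the row and one of genotype cannot be told apart. The cells expressed epithelial keratins, Krt18 at 10.21 in null and 10.15 in wild-type samples, but markers of other cell types were present too. Of genes on the array, 12 of 12 fibroblast, 12 of 13 macrophage, 14 of 14 lymphocyte and 13 of 14 adipocyte markers passed the filter.

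Serum amyloid A proteins are small apolipoproteins of the acute-phase response, the change in secreted proteins that follows infection or injury. In mice the liver makes most SAA1 and SAA2, and SAA3 is made mainly outside it. Lipocalin 2 and lactoferrin withhold iron from bacteria, haptoglobin captures free haemoglobin, LBP and CD14 hand bacterial lipopolysaccharide to the receptor TLR4, SLPI inhibits leukocyte proteases, and the product of Pigr carries dimeric IgA across epithelium into milk. In the mammary gland such genes are known as products of luminal cells and are induced at involution and in mastitis.

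The 10 genes did not move as a block. Saa1 and Saa2 had 4.43-fold and 7.03-fold higher levels in null cells, and Pigr, Lcn2 and Cd14 had 1.63-fold, 1.39-fold and 1.35-fold higher levels. Ltf, Hp and Slpi had 4.24-fold, 2.36-fold and 2.05-fold lower levels, Saa3 a 1.58-fold and Lbp a 1.26-fold lower level. With 5 positive and 5 negative differences, the median of the 10 was 0.05 on the log2 scale, against 0.03 over all 24613 entries tested. It lay so near 0 that its sign turned with quantile normalization and without wild-type sample 3 or null sample 3. In the fit of all entries (limma, adjusted p under 0.05), 2 of the 10 genes, Saa1 and Saa2, were called higher, where 0.219% of all entries were, and 0 were called lower, where 0.333% were (0.553% in either direction). The null and wild-type arrays did not overlap for 5 genes that were higher, where 19.2% of entries did so, and for 1 that was lower, where 12.1% did (31.3% in either direction). Nothing is read from these counts, because the same values had chosen the genes.

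**Figure D1:**
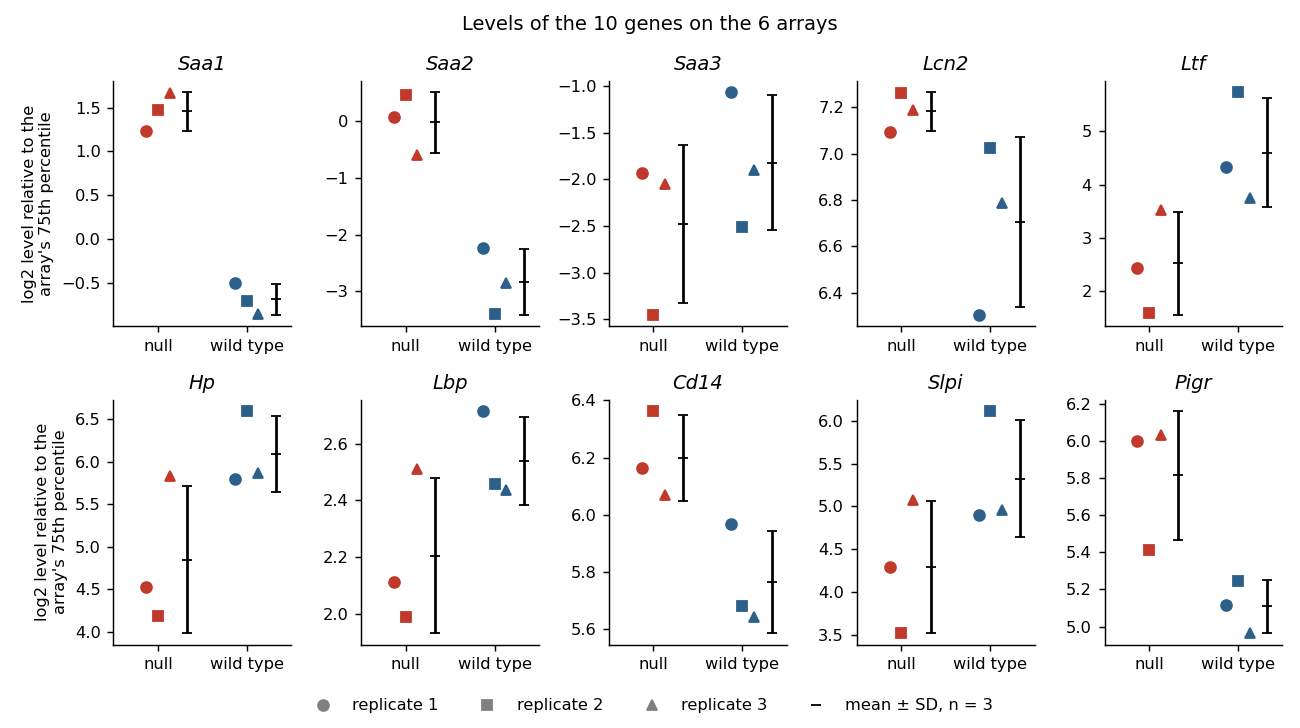
Log2 level of each gene, relative to the 75th percentile of its array, on the 3 null and 3 wild-type arrays; symbols mark replicates and bars the mean ± SD (n = 3). Each panel has its own vertical axis. Null arrays lie above all wild-type arrays for Saa1, Saa2, Lcn2, Cd14 and Pigr, and below them for Ltf.

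Among the amyloids, Saa1 reached log2 levels of 1.23, 1.47 and 1.67 in null samples 1, 2 and 3, against -0.51, -0.71 and -0.86 in wild-type samples 1, 2 and 3. All 3 null arrays lay above all wild-type arrays, with a gap wider than the spread of either group. Means were 1.46 ± 0.22 in null and -0.69 ± 0.18 in wild-type samples (SD, n = 3 each), a difference of 2.15 (SE 0.18). On the linear scale the processed signal was 724.5, 797.5 and 765.8 in null samples and 182.9, 153.6 and 155.9 in wild-type samples. Saa2 was dimmer, at 0.07, 0.46 and -0.59 on the null arrays, against -2.23, -3.40 and -2.86 on the wild-type arrays. Its groups were again apart, null sample 3 being nearest to wild type, and the difference was 2.81 (SE 0.38). Its wild-type signals were 55.2, 23.7 and 38.9, so its fold depends on the background correction. The difference was 1.71 with another correction (normexp) and 1.79 with the authors' deposited values. The normexp setting adds an offset of 50 to each signal, which by itself lowers the fold of signals this dim. Only 28 entries of 24613 had a larger positive difference than Saa2, and 128 a larger one than Saa1. Saa1 was not called when null sample 1 or wild-type sample 2 was left out, and Saa2 was not called without null sample 1 or 2 or any of the 3 wild-type samples.

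Saa3, the member of the family made mainly outside the liver, did not follow them. Its levels were -1.93, -3.45 and -2.05 in null samples, against -1.06, -2.51 and -1.90 in wild-type samples. The groups overlapped, and null sample 2 alone was below every wild-type array. The difference of -0.66 (SE 0.51) was -0.17 without that sample and -0.999 without wild-type sample 2. The same cluster on chromosome 7 also holds Saa4, the constitutive family member, whose signal rose well above background on 0 of 6 arrays. Genes beside the cluster were looked up after these values were seen. Of 8 protein-coding neighbours, 4 on each side, 7 were tested and none passed the threshold over all entries (limma). An unadjusted p under 0.05 (limma) was reached by 1, Saal1, where 22.7% of all entries reached it. Saal1, next to Saa3, had a difference of 0.65 (SE 0.20; limma adjusted p = 0.137) and Hps5, next to Saa2, -0.18 (adjusted p = 0.496).

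Saa1 and Saa2 are close copies that lie head to head in the genome, and their promoters are shown with that of Saa3 because Saa1 and Saa2 had higher levels in null cells and Saa3 did not. The sequences are the 250 bases before the transcript start in RefSeq, build GRCm38.p6, written 5′ to 3′ in the direction of the gene. Capitals mark a match to the C/EBP motif TTGCNNAA on either strand. 
Saa1 promoter, chr7:46742981-46743230, - strand: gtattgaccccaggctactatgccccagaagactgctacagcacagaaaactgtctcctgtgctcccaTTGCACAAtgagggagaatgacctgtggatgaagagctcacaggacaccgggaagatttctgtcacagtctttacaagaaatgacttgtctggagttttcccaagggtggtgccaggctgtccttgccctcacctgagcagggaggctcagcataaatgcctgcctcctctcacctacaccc
Saa2 promoter, chr7:46751583-46751832, + strand: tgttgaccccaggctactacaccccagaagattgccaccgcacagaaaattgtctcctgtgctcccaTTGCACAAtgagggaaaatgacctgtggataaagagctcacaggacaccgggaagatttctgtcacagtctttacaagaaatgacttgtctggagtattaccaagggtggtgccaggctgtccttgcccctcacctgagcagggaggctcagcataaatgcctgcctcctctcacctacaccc
Saa3 promoter, chr7:46715677-46715926, - strand: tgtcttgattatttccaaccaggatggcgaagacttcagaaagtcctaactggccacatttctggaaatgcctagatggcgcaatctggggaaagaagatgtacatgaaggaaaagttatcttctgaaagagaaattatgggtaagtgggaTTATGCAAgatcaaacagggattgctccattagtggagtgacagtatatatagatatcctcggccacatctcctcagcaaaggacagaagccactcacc
Aligned end to end, the Saa1 and Saa2 windows were identical at 238 of 251 alignment columns (94.8%), and Saa1 and Saa3 at 52.2%. The C/EBP match stood at 182 to 175 bases before the start of Saa1, 183 to 176 before that of Saa2 and 99 to 92 before that of Saa3. Promoters were given for 7 of the 10 genes, all but Hp, Lbp and Cd14, and 6 of the 7 held a C/EBP match, all but Pigr, against 9.56% of 32851 promoters of the same length. No match to the STAT motif TTCNNNGAA (7.02% of promoters) or to the NF-kappaB consensus (7.25%), searched on both strands, stood in these 7 windows; with no such match, none overlapped the C/EBP matches. A match is a run of letters and was not tested for binding. Probe sequences were not used here, so how far either probe also reads the other gene's transcript was not tested, and the values of Saa1 and Saa2 are uncertain for that reason.

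**Figure D2:**
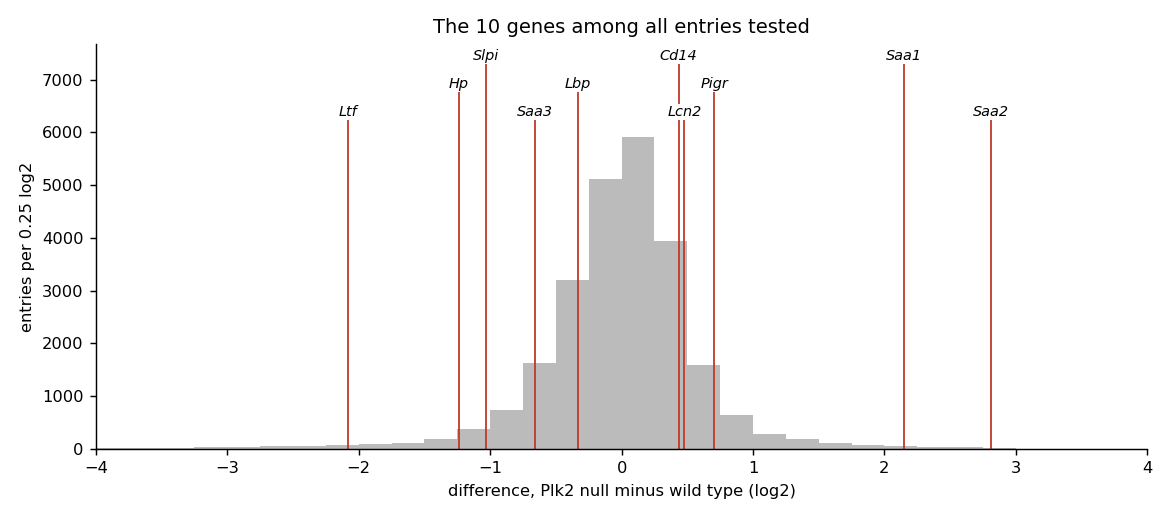
Number of entries per 0.25 log2 of difference, null minus wild type, over the entries tested (grey bars, shown from -4 to 4), with a red line at each of the 10 genes. Saa1 and Saa2 lie in the far right tail at 2.15 and 2.81 and Ltf in the left tail at -2.08, while Lbp, Cd14 and Lcn2 lie in the body.

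The 3 genes that bind iron or haemoglobin split. Lcn2, which encodes the siderophore-binding lipocalin 2, was bright on every array, at 7.10, 7.26 and 7.19 in null samples and 6.30, 7.02 and 6.79 in wild-type samples. The null arrays were close together and all above wild type, with wild-type sample 1 lowest. The difference was 0.48 (SE 0.21), and 13.4% of entries had a larger one. It was 0.28 without wild-type sample 1 and 0.77 with arrays scaled on spike-in controls, which moved the median of all entries from 0.03 to 0.31.

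Ltf, which encodes lactoferrin, the iron-binding protein of milk and of neutrophil granules, had levels of 2.44, 1.60 and 3.53 in null samples, against 4.33, 5.74 and 3.75 in wild-type samples. The highest null array was just below the lowest wild-type array, and the spread within each group was wide. Means were 2.52 ± 0.97 in null and 4.60 ± 1.02 in wild-type samples (SD, n = 3 each), a difference of -2.08 (SE 0.64). Only 1.05% of entries had a lower difference. It was -1.62 without null sample 2 and -1.52 without wild-type sample 2, the extremes of each group.

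Hp, the haptoglobin gene, showed 4.53, 4.19 and 5.83 in null samples, against 5.80, 6.60 and 5.86 in wild-type samples. Null samples 1 and 2 were below all wild-type arrays and null sample 3 was within their range. The difference was -1.24 (SE 0.45), and -0.91 without null sample 2.

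Of the genes that sense lipopolysaccharide, Lbp and Cd14 differed in sign. Lbp, for the secreted binding protein, measured 2.11, 1.99 and 2.51 in null samples, against 2.72, 2.46 and 2.44 in wild-type samples. Null sample 3 overlapped wild type, and the difference was -0.33 (SE 0.19). With arrays scaled on spike-in controls it was -0.05, but that scaling moved the median of all entries from 0.03 to 0.31. Cd14, for the co-receptor, which is also known as a surface marker of luminal progenitors and of monocytes, measured 6.16, 6.36 and 6.07 in null samples, against 5.97, 5.68 and 5.64 in wild-type samples. All null arrays were above all wild-type arrays, by a narrow margin, and the difference was 0.43 (SE 0.16), or 0.72 with spike-in scaling. The receptor genes that CD14 serves were named after their values were seen: Tlr4 differed by -0.21 (SE 0.17; limma adjusted p = 0.48) and Ly96, its lipopolysaccharide-binding subunit, by -0.06 (SE 0.22; adjusted p = 0.89).

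Slpi, for the secretory leukocyte protease inhibitor, measured 4.29, 3.52 and 5.07 in null samples, against 4.89, 6.12 and 4.96 in wild-type samples. Null sample 3 was above 2 of the 3 wild-type arrays, so the groups overlapped. The difference was -1.03 (SE 0.48), -0.65 without null sample 2 and -0.64 without wild-type sample 2. Pigr, by its bright probe, measured 6.0, 5.41 and 6.03 in null samples, against 5.12, 5.25 and 4.96 in wild-type samples. The groups were apart, with null sample 2 nearest to wild type, and the difference was 0.71 (SE 0.21). The second Pigr probe was near background, at -2.96, -3.05 and -5.89 in null samples and at -4.94, -6.64 and -4.78 in wild-type samples. It was well above background on null arrays 1 and 2 and wild-type array 3 alone, and its difference of 1.48 had the same sign while its groups overlapped. The mean of both probes differed by 1.09.

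The spread between null arrays differed from gene to gene, with SDs that ran from 0.08 for Lcn2 through 0.35 for Pigr, 0.54 for Saa2 and 0.85 for Saa3 to 0.97 for Ltf. Against the wild-type mean, Saa1 stood at 1.92, 2.16 and 2.36 in null samples 1, 2 and 3 and Lcn2 at 0.39, 0.56 and 0.49. The same measure was -2.16, -3.01 and -1.08 for Ltf. For Hp it was -1.56, -1.90 and -0.26, and for Slpi -1.04, -1.81 and -0.26. Ltf, Hp and Slpi thus shared the order of arrays, with null sample 2 lowest, null sample 1 next, null sample 3 nearest to wild type and wild-type sample 2 highest. Null sample 3 lay within the wild-type range for Saa3, Hp, Lbp and Slpi.

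**Figure D3:**
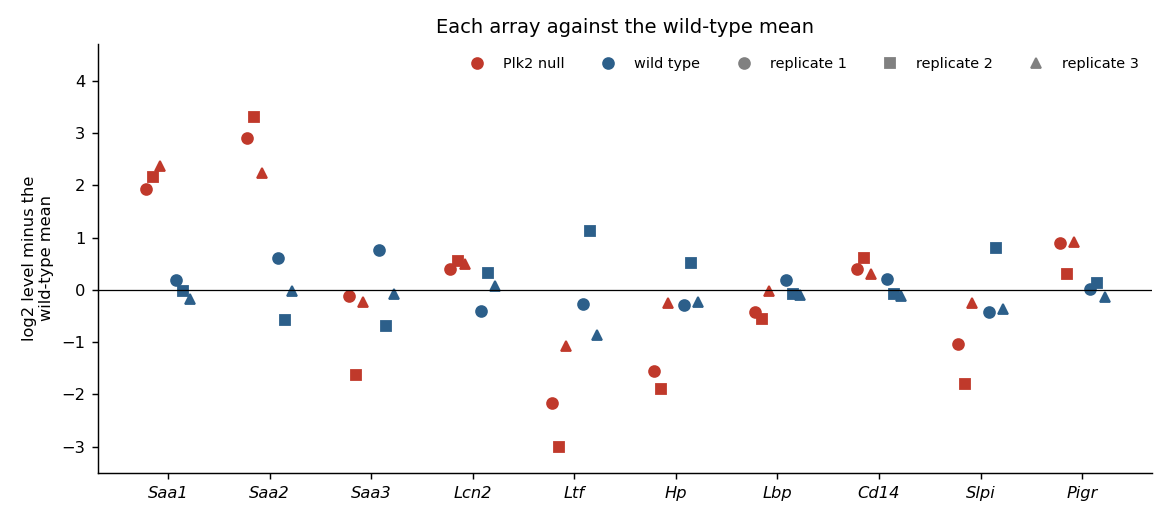
Log2 level of each gene on each array minus the mean of the 3 wild-type arrays; red symbols are null and blue symbols wild-type arrays, and shapes mark replicates. Saa1 lies between 1.92 and 2.36 on the null arrays, while Hp lies at -1.90 on null array 2 and at -0.26 on null array 3.

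Markers of other cell types that may make these proteins are given beside the genes. In whole preparations, fewer cells of a type and less RNA per cell cannot be told apart. Lymphocyte markers had median deviations from the wild-type mean of -2.90, -3.16 and -1.33 in null samples 1, 2 and 3, with 14 of 14 tested genes negative. Their summed level, in units of each array's 75th percentile, was 5.15 to 11.03 on null and 22.2 to 37.0 on wild-type arrays, and Cd79b, a B cell receptor subunit gene, differed by -2.49 (SE 0.44; limma adjusted p = 0.0577). Macrophage markers had median deviations of -0.42, -0.93 and -0.21, with 12 of 12 negative and summed levels of 62.7 to 104.1 on null and 105.8 to 154.6 on wild-type arrays. The null arrays came in the same order as for Ltf, Hp and Slpi, and so did those of the fibroblast markers. That order was not particular to them. Median deviations of pan-epithelial, neutrophil and hepatocyte markers and of every list of accompanying genes below shared it. Those of luminal progenitor, milk, adipocyte and erythroid markers did not. The wild-type arrays of lymphocyte and macrophage markers came in another order than for Ltf, Hp and Slpi. Wild-type sample 2, the highest for these 3 genes, was the lowest wild-type array for lymphocyte markers, at -0.31 against 0.53 and -0.29 in wild-type samples 1 and 3. It was also the lowest for macrophage markers, at -0.23 against 0.35 and -0.15. The part of these shifts in the values of the 10 genes was not tested.

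Of the neutrophil markers, 8 of the 12 on the array passed the filter, 5 with a positive and 3 with a negative difference and a median of 0.21. Ngp, Mmp8 and Fcnb, which encode granule proteins, were well above background on 0 of 6 arrays, and the summed level was 26.2 to 42.4 on null and 43.2 to 56.3 on wild-type arrays. That sum was carried by Csf3r, the one neutrophil marker with a mean level above 0. Their brightest genes were Csf3r, for the receptor of granulocyte colony-stimulating factor, at a difference of -0.46 (SE 0.26; limma adjusted p = 0.336), and S100a9, for a calprotectin subunit, at 0.18 (SE 0.36; adjusted p = 0.795). Of the hepatocyte markers, 5 of 10 passed the filter. Alb, Apoa1 and Apoh, for albumin and 2 apolipoproteins, were well above background on 0 of 6 arrays, while Apoa2, for another apolipoprotein, and F2, for prothrombin, were so on all 6, at 0.09 in null and 0.16 in wild-type samples for Apoa2 and at -3.41 in null and -2.45 in wild-type samples for F2; the summed level was 1.27 to 1.56 on null and 1.38 to 1.56 on wild-type arrays. Adipocyte markers, 13 of 14 tested, had summed levels of 330.1 to 552.7 on null and 339.4 to 461.9 on wild-type arrays, with Lep well above background on 0 of 6 arrays, and a median difference of 0.02. Erythroid markers, whose globins are the ligands of haptoglobin, had a median difference of -0.10 over 5 of 7 genes, with summed levels of 202.1 to 260.3 on null and 192.4 to 344.3 on wild-type arrays and Epb42 well above background on 0 of 6 arrays. Fibroblast markers were negative in 12 of 12, with a median of -0.54 and summed levels of 1328 to 1819 on null and 1960 to 2263 on wild-type arrays.

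Among epithelial markers, luminal progenitor genes had summed levels of 84.8 to 116.1 on null and 64.4 to 78.8 on wild-type arrays, with 6 of 10 positive. Their median deviations from the wild-type mean were 0.49, 0.34 and -0.18 in null samples 1, 2 and 3. The higher null sum came from Elf5 and Rspo1, and no gene of the list was called. Rspo1, Aldh1a3 and Itgb3, named after their values were seen, differed by 2.25 (SE 0.52), -1.60 (SE 0.35) and -0.77 (SE 0.23). Elf5, the alveolar transcription factor, differed by 1.70 (SE 0.29; limma adjusted p = 0.0566) and Prom1, which encodes prominin 1, by -1.03 (SE 0.44; adjusted p = 0.224). Milk genes had summed levels of 702.5 to 972.0 on null and 732.7 to 962.7 on wild-type arrays, a sum carried by Mfge8. Of 13 on the array, 10 passed the filter, all but Csn2, Csn3 and Wap. Of these 10, 8 were positive, with a median of 1.32. Their median deviations from the wild-type mean were 1.83, 2.01 and 0.19 in null samples 1, 2 and 3. In wild-type samples they were 0.02, -0.23 and 0.39, so null sample 3 lay within the wild-type range. The 2 brightest, Mfge8, for a milk fat globule protein, at -0.14 (SE 0.21; limma adjusted p = 0.715), and Glycam1, were the negative ones. Glycam1, for a milk mucin, stood at -0.11, -7.31 and 3.80 in null samples, against 4.94, 4.50 and 5.20 in wild-type samples (difference -6.09, SE 2.52; adjusted p = 0.216). It was well above background on 2 of 3 null arrays, all but null array 2, so the size of its difference depends on a background value. Pan-epithelial genes spanned 2006 to 2629 on null and 2135 to 2176 on wild-type arrays, with Krt18 differing by 0.06 (SE 0.16). Krt18 and Krt19 carried that sum, which says little of the dimmer genes of the list, with 6 positive and 5 negative and 0 called. Krt5, Krt14 and Cldn4, named after their values were seen, differed by 0.96 (SE 0.44), 0.91 (SE 0.34) and -0.71 (SE 0.24). The part of these epithelial differences in the values of the 10 genes was likewise not tested.

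Genes that accompany the 10 were read from lists, none of which had a member called higher. Only 0.219% of all entries were called higher, so nothing is read from that in lists of this size. Of 19 other acute-phase genes tested, of 24 on the array, 0 passed over all genes (limma; 7, or 36.8%, at an unadjusted p under 0.05, where 22.7% of all entries reached it). Their median difference was -0.21, with 6 positive and 13 negative. Itih3, for a heavy chain of a hyaluronan-binding protease inhibitor, differed by -1.77 (SE 0.37; adjusted p = 0.076), the fibrinogen chain gene Fgb by 1.15 (SE 0.29; adjusted p = 0.097) and S100a8, a calprotectin subunit gene, by 1.47 (SE 0.39; adjusted p = 0.104). The list's median rested on single arrays: it was -0.0069 without null sample 2, -0.074 without wild-type sample 1, -0.43 without null sample 1, -0.35 without null sample 3 and -0.45 without wild-type sample 2. It was -0.10 with normexp, -0.13 with the authors' deposited values and 0.07 with spike-in scaling, which moved the median of all entries to 0.31.

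Of 21 other epithelial antimicrobial genes tested, 0 passed (limma), with 12 positive and 9 negative and a median of 0.08. An unadjusted p under 0.05 (limma) was reached by 4, or 19.0%, against 22.7% of all entries. Rnase4, for a secreted ribonuclease, differed by -0.94 (SE 0.21; adjusted p = 0.0868). Pglyrp1, for a peptidoglycan-binding protein, differed by 0.97 (SE 0.23; adjusted p = 0.0937) and Wfdc18, which like Slpi encodes a whey acidic protein domain, by 0.57 (SE 0.16; adjusted p = 0.114). The sign of this median turned with the processing, to -0.16 with no filter and -0.04 with normexp. It was 0.12 to 0.23 with 1 array left out. With spike-in scaling it was 0.36, where the median of all entries was 0.31.

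Cytokines and receptors known to induce the acute-phase genes had a median of -0.42, with 19 of 24 negative and 0 past the threshold (limma). An unadjusted p under 0.05 (limma) was reached by 7, or 29.2%, against 22.7% of all entries. It was -0.13 with spike-in scaling and -0.22 without null sample 2. Il22, for a lymphocyte cytokine that acts on epithelium, was well above background on 1 of 3 null and 3 of 3 wild-type arrays and differed by -2.0 (SE 0.47; adjusted p = 0.0902). Il6ra, the interleukin 6 receptor gene, differed by -0.65 (SE 0.16; adjusted p = 0.0979) and the interleukin 17 receptor gene Il17ra by -0.77 (SE 0.22; adjusted p = 0.115).

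The NF-kappaB, Stat3 and C/EBP list had a median of -0.09, with 8 positive and 19 negative of 27 and 0 past the threshold (limma). An unadjusted p under 0.05 (limma) was reached by 5, or 18.5%, against 22.7% of all entries. Nfkb1 differed by -0.61 (SE 0.13; adjusted p = 0.084), its partner gene Relb by -0.65 (SE 0.15; adjusted p = 0.0923) and Pim1, a kinase gene known as a target of Stat3, by -0.59 (SE 0.17; adjusted p = 0.122). The median was -0.25 without null sample 3 and -0.25 with array weights. It was -0.21 with quantile normalization, -0.20 with the authors' deposited values and -0.06 with median centring. With spike-in scaling it was 0.19, where the median of all entries was 0.31.

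Of 21 tested genes for partners and receptors of the 10 proteins, 1 was called lower and 0 higher (limma). Among all entries, 0.333% were called lower and 0.219% higher. An unadjusted p under 0.05 (limma) was reached by 5, or 23.8%, against 22.7% of all entries. The median of the list was -0.10. It was -0.02 without wild-type sample 2, -0.18 without wild-type sample 3 and -0.17 with quantile normalization. With spike-in scaling it was 0.18, where the median of all entries was 0.31. The called gene was Tlr1, for a receptor of bacterial lipopeptides, at -4.52 ± 0.61 in null and -2.33 ± 0.02 in wild-type samples (SD, n = 3 each; fell 4.55-fold, adjusted p = 0.047). It was well above background on 2 of 3 null arrays. No gene of the list was called without null sample 1 or any of the 3 wild-type samples. Jchain, whose product joins the IgA that the Pigr receptor carries, differed by -2.60 (SE 0.46; adjusted p = 0.0582), a lymphocyte marker itself. Lrp1, for a broad endocytic receptor, differed by -0.96 (SE 0.23; adjusted p = 0.0952).

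**Figure D4:**
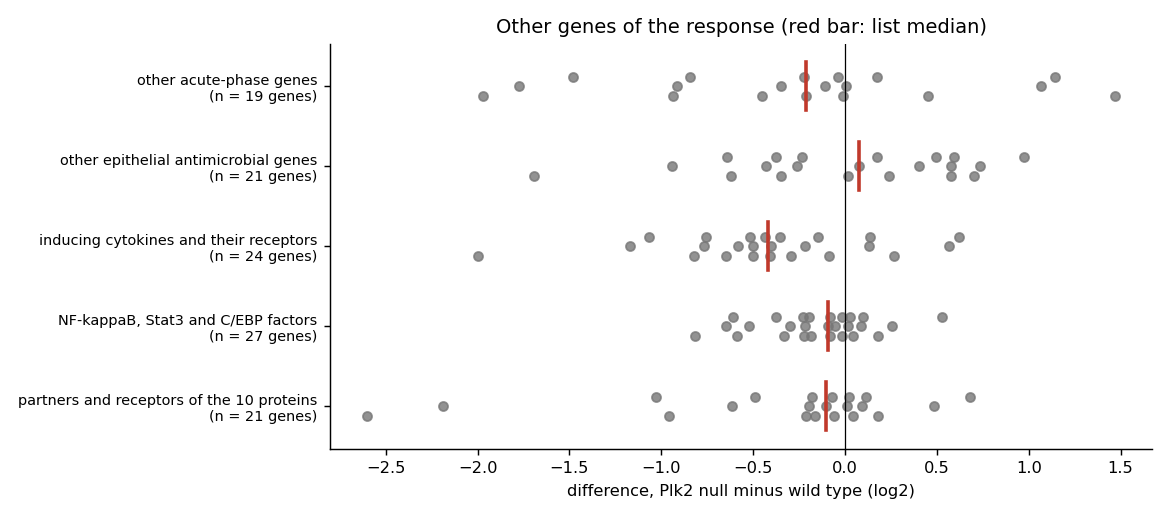
Log2 difference, null minus wild type, of each tested gene of 5 lists (grey points, spread vertically for legibility), with the list median as a red bar. The cytokine and receptor list has its median at -0.42 and the antimicrobial list at 0.08, and single genes of each list lie on both sides of 0.

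Each gene's profile over the 6 arrays, centred on its own mean, was averaged over the 10 genes, and 14387 other named genes were compared with this average. Among the 5 closest were Ganc, with a Pearson r of 0.985, Sirpb1a at 0.972, Scg5 at 0.970 and Nfatc4 at 0.970. The likeness rests on 6 arrays, whose values share array scaling, and on an average in which opposite shifts cancel: it ranged from -0.26 in null sample 2 to 0.38 in null sample 3. Ganc itself differed by 0.09 between null and wild type.

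**Figure D5:**
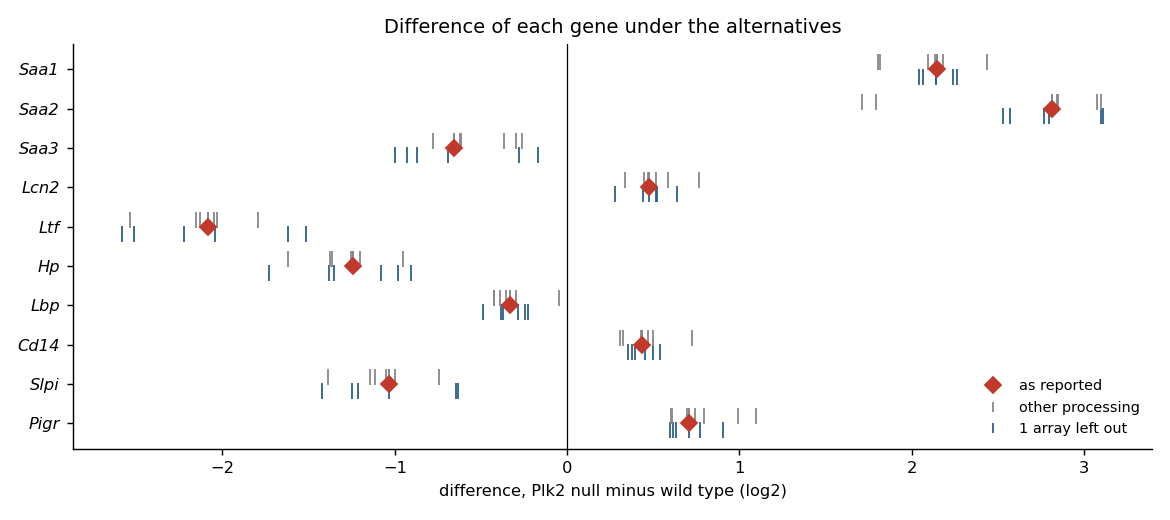
Log2 difference, null minus wild type, of each gene as reported (red diamond), under other processing (grey ticks) and with 1 array left out (blue ticks). No tick crosses 0 for any gene, and Lbp comes nearest, at -0.05 with spike-in scaling, where the median of all entries was 0.31.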

How the data were processed

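Each sample's RNA was labelled with Cy3 and hybridised to an Agilent array of design 028005, read with Feature Extraction 11.0.1.1 under protocol GE1_1100_Jul11, per the file headers, which name the mm9 build. The deposited processed signals are linear intensities corrected for background by the scanner software and not normalized between arrays; the authors' deposited table holds, per row, their normalized intensity for each array, a ratio of the groups, a signed fold (a score) and an unadjusted p-value, all used as deposited since no source used here gives their making.

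Log2 intensity was centred on each array's 75th percentile over gene spots, without control spots and 1119 spots marked as outliers. Accessions were matched to RefSeq (GRCm38.p6), naming 26582 probes. Probes well above background on at least 3 arrays were kept, and the brightest on average stood for a gene. The 24613 entries were fitted with limma 3.58.1 in R 4.3.3 (lmFit, eBayes, Benjamini-Hochberg, threshold 0.05); this fit was tested on simulated data. Levels of different probes are not comparable. Promoters were aligned with Biopython 1.88.

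The 10 genes, the lists and the rule for named genes (the 3 smallest p per list, the 2 brightest per marker list, 5 genes by likeness) were chosen with earlier results of these data known. Not every gene that these choices take is reported here. Genes named outside that rule are marked in the text, except markers named because they were not well above background or failed the filter. The 17 alternatives comprised other background correction (normexp with an offset of 50), scaling, filters, moderation and weights. They also comprised the replicate number as a block, the authors' values and each array left out.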

Additional observations from a re-analysis of the deposited data

How the results depend on the processing

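All 10 genes kept the sign of their difference under each of the 17 alternatives. The count of the 10 genes called higher, 2 as reported, was 1 with quantile normalization, 1 with no filter on dim probes, 0 with the replicate block and 0 to 2 with 1 array left out, and with normexp it was 3, where Pigr joined. Hp was called once, without null sample 3. Their median, 0.05, changed sign with quantile normalization (-0.04), without wild-type sample 3 (-0.0044) and without null sample 3 (-0.0066), and was 0.34 with spike-in scaling, which moved the median of all entries from 0.03 to 0.31. Of all entries, 136 were called as reported, 1218 with normexp, 340 with median centring, 375 with spike-in scaling, 382 with probes well above background on all 6 arrays, 31 with no filter, 822 with eBayes with trend, 1497 with array weights, 8 with the replicate block, 770 with the authors' deposited values and 7 to 735 with 1 array left out. The split of calls was 54 higher and 82 lower as reported, 176 and 164 with median centring, 250 and 125 with spike-in scaling, 387 and 383 with the authors' deposited values, and 239 and 496 without null sample 3. Other acute-phase genes, 0 as reported, had 3 calls with normexp, 1 with spike-in scaling, 1 with trend, 1 with array weights, 1 with the authors' values and 0 to 2 with 1 array left out. Antimicrobial genes, 0 as reported, had 2 with normexp, 1 with trend, 3 with array weights and 0 to 2 with 1 array left out. Cytokines and receptors, 0 as reported, had 1 with normexp, 4 with array weights and 0 to 3 with 1 array left out. The NF-kappaB list, 0 as reported, had 3 with normexp, 2 with trend, 3 with array weights and 3 with the authors' values. Partners and receptors, 1 as reported, had 0 with quantile normalization, 0 with no filter, 0 with the replicate block, 2 with normexp, 2 with spike-in scaling, 2 with trend, 3 with array weights, 2 with the authors' values and 0 to 2 with 1 array left out. The causes of these shifts were not tested. Replicate numbers are shared by the groups, and same-numbered samples also share a column of the slide. Deviations of same-numbered samples correlated at -0.12, 0.04 and -0.02, and so few samples cannot show whether a column or a pairing matters. The block costs degrees of freedom, and with it neither Saa1 nor Saa2 was called. In the authors' deposited table Saa1 was 3.53-fold and Saa2 3.47-fold higher in null cells. Saa2 and Saa3 had the dimmest signals of the 10 genes and are the most open to background error, and the number of arrays limits every value.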
